A study of Mus musculus with 9 samples.

Results

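The genes described here encode 10 proteins that the liver secretes into blood plasma: Ahsg, Alb, Afp, Ttr, Apoa1, Apoa2, Apob, Fgb, Trf and Ambp. They were followed on the postnatal day 3 (PND3) arrays of a study of Glis3, a zinc finger transcription factor, as the probes annotated to each gene by name or accession. All 10 were found among 28786 genes and other named transcripts on the array, with 14 of its 41174 probes. For 9 of them the name in the file matched, and Alb, listed under its older name Alb1, was matched by accession. They were selected on these same mutant over WT ratios, since some had been seen to lie in opposite directions. The ratios are therefore given as descriptions and no test is made on them.

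RNA of 2 Glis3 mutant pups (Glis3zf/zf) was pooled and RNA of 2 wild-type (WT) pups was pooled, all of strain C57BL/6 at postnatal day 3, with pancreas as the labelled tissue. The mutants are homozygous by their notation, and the labels name no further allele or treatment. Both pools were hybridised together on 2 Agilent two-colour arrays with the dyes exchanged. On array 1 the mutant RNA carried Cy3 and the WT RNA Cy5, and on array 2 the mutant RNA carried Cy5 and the WT RNA Cy3. The arrays sit on 1 slide and measure the same pair of pools, so the design holds 1 pool per genotype, has no replicate animals, and gives no p-value. The number of arrays limits the precision. The E15.5 arrays of the series were not used here, because no table pairing their probe sets with genes was at hand.

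Plasma proteins are made mainly by hepatocytes, which secrete carriers of fatty acids, hormones, retinol and iron, the apolipoproteins of lipid particles, clotting factors and protease inhibitors. Their genes are switched on by a shared group of liver factors, among them HNF4, FOXA and C/EBP proteins. Several are also made outside the liver: transthyretin in choroid plexus and pancreatic islets, and many of them in the yolk sac. Afp is the fetal relative of albumin in the mouse and is turned down after birth while Alb stays on. Alb and Afp lie next to each other on chromosome 5, with 0 protein-coding genes between them in the RefSeq annotation.

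The sequences below are the 250 bases before the RefSeq start of Ahsg, Alb and Afp, the 3 genes whose opposite ratios the results turn on and for which a promoter is printed. Coordinates are those of RefSeq build GRCm38.p6, all on the plus strand. The capitals mark the letters CCAAT or their reverse complement ATTGG, the CCAAT box, a common promoter element.
Ahsg, chr16:22891765-22892014: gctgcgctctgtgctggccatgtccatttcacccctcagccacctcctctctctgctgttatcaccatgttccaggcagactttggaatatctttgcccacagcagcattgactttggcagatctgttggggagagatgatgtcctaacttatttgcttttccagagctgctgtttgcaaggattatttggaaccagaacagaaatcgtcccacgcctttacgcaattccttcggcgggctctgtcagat
Alb, chr5:90460620-90460869: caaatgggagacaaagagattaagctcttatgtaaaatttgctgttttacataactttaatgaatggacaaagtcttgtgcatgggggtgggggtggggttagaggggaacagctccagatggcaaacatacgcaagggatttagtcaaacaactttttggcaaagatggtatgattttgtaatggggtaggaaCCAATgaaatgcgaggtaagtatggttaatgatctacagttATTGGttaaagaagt
Afp, chr5:90490464-90490713: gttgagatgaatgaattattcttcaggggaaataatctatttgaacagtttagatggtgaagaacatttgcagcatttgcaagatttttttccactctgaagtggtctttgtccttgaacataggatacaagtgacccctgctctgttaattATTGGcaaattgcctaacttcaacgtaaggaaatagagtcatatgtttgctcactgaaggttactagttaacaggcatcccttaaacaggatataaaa

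The CCAAT box begins 56 bases before the start of Alb, with ATTGG at 15 bases, and ATTGG begins 98 bases before the start of Afp. Neither form is in the Ahsg window. Among 9 promoter windows listed for member genes, 5 held one of the forms, those of Alb, Afp, Ambp and both of Apoa2, against 33.8% of all 32851 windows of that length. The FOXA letters TGTTTAC or GTAAACA were in 1, an Apoa2 window, against 3.17%. The letters TGGGGGGT or ACCCCCCA, the core of the sequence that GLIS proteins bind, were in 0 of the 9, against 1.36% of all windows. So the neighbours Alb and Afp, which lay on opposite sides of WT, both carry the CCAAT letters, which are common among all windows. These matches are descriptions of the letters in these windows.

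Each gene is read on the array by probes of 60 bases. The first 30 bases of the probes of the same 3 genes are shown because a probe that bound a relative's transcript could blur opposite ratios.
Ahsg probe: tgcaaccacgactctgaaaggtgctcttgc
Alb probe: gctctgacagttgatgaaacatatgtcccc
Afp probe: gtgagccttttggcttaactgtaactgcta

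The longest run of letters shared by the whole Alb and Afp probes was 6 bases of 60. Over all pairs of the 14 member probes it lay between 4 and 8 bases. The probes were set only against each other and no transcript was searched. Whether a probe could bind a relative's transcript was therefore not tested. The G and C content of the member probes lay between 38.3% and 55%.

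Pancreas markers were dim and kidney markers bright in both pools, so the label of the tissue should be read with care. Summed over 10 measured acinar genes, the processed signal was 1673 and 1458 in the mutant pool, against 1764 and 1500 in the WT pool. Summed over 20 measured kidney nephron genes it was 443010 and 409650 in the mutant pool, against 477730 and 453250 in the WT pool. The targeted gene Glis3 gave 3.88 and 3.39 in the mutant pool, which neither array flagged as well above background, against 22.1 and 21.5 in the WT pool, flagged on both. It was at least 1.16-fold lower in the mutant pool. Whether its probe lies in the mutated stretch is not known here. For every ratio below, fewer cells of a type and less RNA per cell cannot be told apart.

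Over all member genes the ratios spread wide around a middle near 0. A gene counted as measured when a probe was well above local background, by the scanner software's flag, in at least 1 genotype on both arrays, and its brightest such probe stood for it. By that rule 9 of the 10 genes were measured, and Apoa1 was not. Of the 9, 3 were higher in the mutant pool on both arrays (Ahsg, Alb and Trf), 4 were lower on both (Ttr, Afp, Apoa2 and Ambp), and 2 had opposite signs (Fgb and Apob). Of all 20922 genes measured, 30.8% were higher and 37.9% lower on both arrays, so 68.7% kept their sign. The median log2 ratio, mutant over WT, was -0.07 over the 9 genes and -0.01 over all genes. The rule of a 2-fold or larger ratio of equal sign on each array was met by 1 member, Ahsg, and by 0.191% of all genes, 0.0335% higher and 0.158% lower in the mutant pool. By the scanner software's ratio it was met by 2 members, Ahsg higher and Ttr lower, and by 0.836% of all genes, 0.105% higher and 0.731% lower. That ratio put 4 members higher on both arrays (Apob added) and 4 lower (Fgb in place of Ambp), against 34.9% and 38.7% of all genes, or 73.6% with equal signs. Because the ratios chose the members, nothing is read from these counts. The 2-fold line, at log2 ratios of 1 and -1, was passed by Ahsg at 1.64 and just missed by Ttr, whose mean was -0.99.

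**Figure D1:**
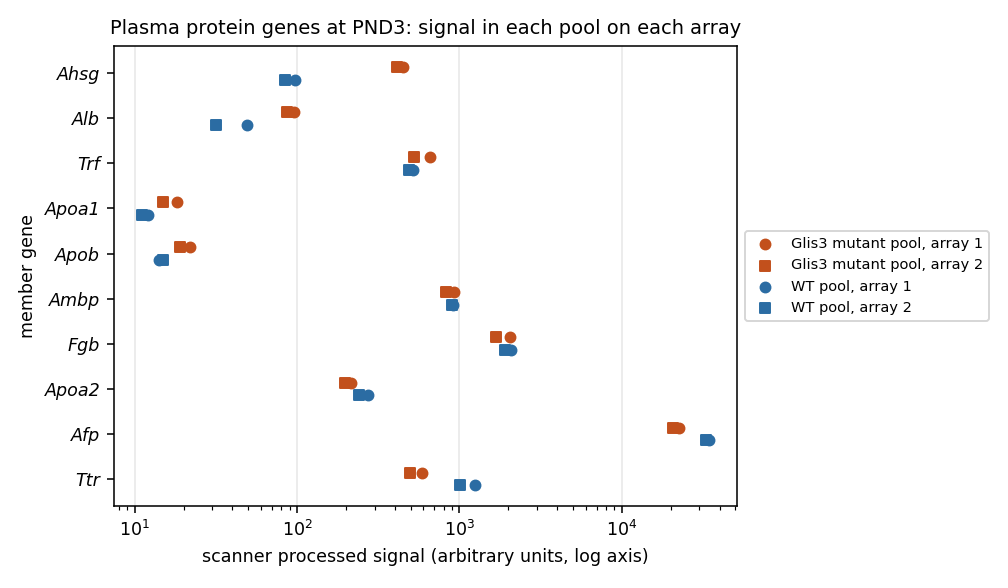
Scanner processed signal (arbitrary units, log axis) of each member gene's probe in the Glis3 mutant pool (orange) and the WT pool (blue), on array 1 (circles) and array 2 (squares); pools are to be compared within a gene only. The mutant points lie to the right of the WT points for Ahsg, Alb, Trf, Apob and Apoa1, the last 2 near background. They lie to the left for Ttr, Afp and Apoa2, and the pools overlap for Ambp and Fgb. Each pool has 1 point per array and the ratios chose the members, so nothing is read from how many lie apart.

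Among the carriers of hormones and retinol, Ttr had the lowest ratio of all members. It encodes transthyretin, which carries thyroxine and holds the retinol binding protein in plasma. Its probe gave processed signals of 589 and 493 in the mutant pool, against 1242 and 1015 in the WT pool. The higher mutant signal was therefore well under the lower WT signal. The log2 ratio was -0.96 on array 1 and -1.01 on array 2, a mean of -0.99, or 1.98-fold lower in the mutant pool. Only 40 of the 20922 genes had a lower mean ratio, since Ttr was number 41 from the bottom. Every channel of both arrays carried the flag for a signal well above background.

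Rbp4, which encodes the plasma retinol binding protein that transthyretin holds, stood on the other side. It gave 3696 and 3336 in the mutant pool, against 2091 and 1912 in the WT pool. Its log2 ratios were 0.87 and 0.75. The ratios of Ttr and Rbp4, partners in one plasma complex, thus had opposite signs on each array. Crabp1, a cytoplasmic retinoic acid binding protein, stood at 0.39. Of the 7 measured genes in the list of retinol and thyroid hormone carriers, Ttr included, 3 were higher and 3 lower on both arrays, with a median of -0.06.

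The albumin family gave a pair of neighbours with opposite ratios. Alb encodes albumin, the most abundant plasma protein, which carries fatty acids and many hormones. Its probe gave 96.2 and 86.5 in the mutant pool, against 49.0 and 31.7 in the WT pool. All values were dim, and every one was flagged well above background. Both mutant signals were above both WT signals. Each is 1 spot read from the same 2 pools, so no spread between animals is measured. The log2 ratio was 0.42 on array 1 and 0.68 on array 2, with a mean of 0.55. Those ratios include an offset of 50 added to each channel, which draws dim probes toward 0. The scanner software's own ratios, without that offset, were 0.97 and 1.45, with a mean of 1.21, or 2.31-fold. Alb was 108th from the top of all genes by mean ratio.

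Afp encodes alpha-fetoprotein, the major plasma protein of the fetus. Its probe is printed 10 times on each array, which gives a spread between spots that most genes lack. On array 1 the 10 spots gave a lowest, median and highest signal of 21876, 22421 and 23483 in the mutant pool, against 32793, 34570 and 36095 in the WT pool. On array 2 they gave 19503, 20716 and 22105 in the mutant pool, against 31893, 33219 and 35234 in the WT pool. No mutant spot reached the lowest WT spot of its array. The log2 ratio was -0.61 ± 0.05 on array 1 and -0.67 ± 0.05 on array 2 (SD over 10 spots each, a technical spread). Every spot had a ratio under 0, between -0.71 and -0.53 on array 1 and between -0.75 and -0.60 on array 2. Afp was 1.56-fold lower in the mutant pool and number 134 from the bottom of all genes.

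**Figure D2:**
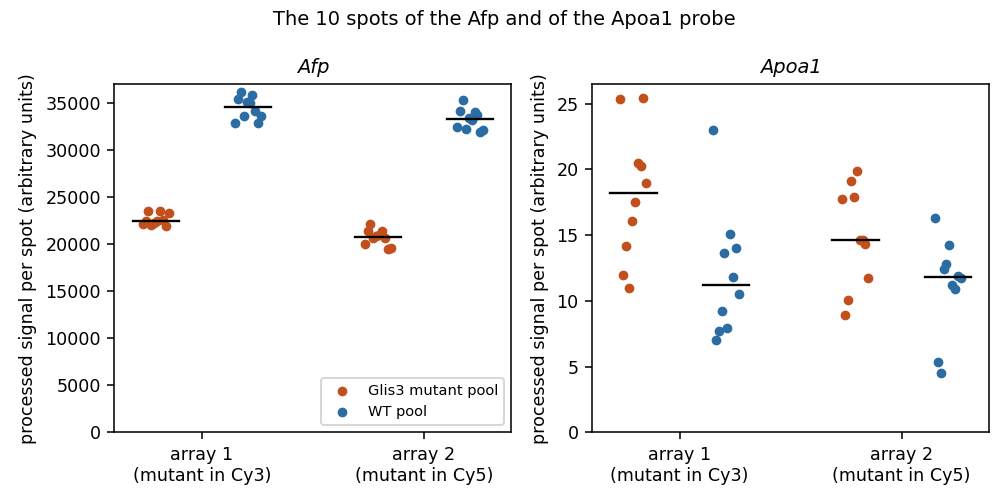
Processed signal (arbitrary units, axis from 0) of each of the 10 spots of the Afp probe (left) and the Apoa1 probe (right), in the Glis3 mutant pool (orange) and the WT pool (blue) on each array; black lines are medians. For Afp the pools are apart on both arrays, with medians of 22421 and 20716 in the mutant pool against 34570 and 33219 in the WT pool, and for Apoa1 the spots of the pools overlap.

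Set against each other, the ratio of Alb exceeded that of Afp by 1.04 on array 1 and by 1.35 on array 2. The genes were selected for such opposite ratios, so these distances are a description only. The other relatives in the cluster lay near 0. Afm, which encodes afamin, had its brightest probe at 0.07 and 0.05. A dimmer Afm probe stood at 0.16 and 0.13, with a mean of 0.35 by the scanner software. Gc, which encodes the vitamin D binding protein, stood at -0.08 and -0.18.

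Iron transport differed little. Trf encodes transferrin, the plasma carrier of iron. Its probe gave 661 and 528 in the mutant pool, against 518 and 486 in the WT pool. The lower mutant signal exceeded both WT signals, but only narrowly. The log2 ratio was 0.36 on array 1 and 0.04 on array 2. That gap of 0.32 was the widest of any member and as wide as the 95th percentile over all genes, so a size for Trf cannot be given beyond the arrays' own disagreement. Tfrc, the transferrin receptor, stood at 0.24 and 0.20. Of 14 measured genes of iron handling, Trf included, 5 were higher and 2 lower on both arrays, and the median was -0.00. Hamp2, a hepcidin gene, stood at -0.35 and Cp, the copper oxidase ceruloplasmin, at 0.26.

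Ahsg had the largest difference of any member. It encodes fetuin-A, a glycoprotein that keeps calcium phosphate from precipitating in blood and is abundant in fetal plasma. Its probe gave 452 and 411 in the mutant pool, against 97.6 and 84.8 in the WT pool. Each mutant signal was more than 4 times each WT signal. The log2 ratio was 1.598 on array 1 and 1.68 on array 2, with a mean of 1.64, or 3.12-fold. By the scanner software's ratio it was 2.21 and 2.28, or 4.74-fold. Only 1 of the 20922 genes had a higher mean ratio.

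The genes beside Ahsg on chromosome 16 did not share its ratio. Fetub encodes fetuin-B, the nearest relative of fetuin-A, with 0 protein-coding genes between them in RefSeq. It gave 177 and 149 in the mutant pool, against 154 and 160 in the WT pool. The pools overlapped, and its log2 ratios were 0.12 and -0.11. Hrg, which encodes histidine-rich glycoprotein, stood at -0.15 and -0.21. Kng1, which encodes kininogen, the source of bradykinin, had its brightest probe at 0.02 and 0.18. A dimmer Kng1 probe stood at 0.27 and 0.16, with a mean of 0.53 by the scanner software.

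**Figure D3:**
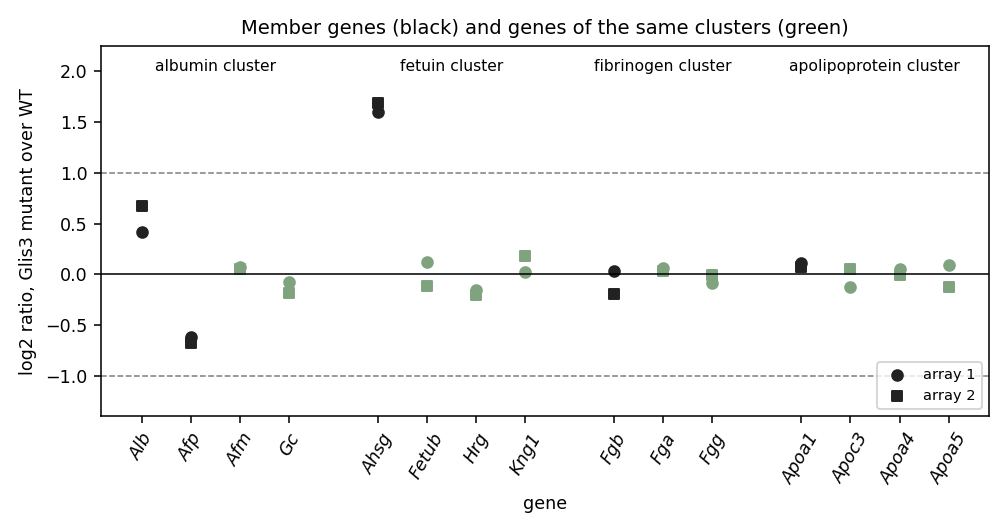
Log2 ratio, Glis3 mutant over WT, on array 1 (circles) and array 2 (squares) of member genes (black) and genes of the same genomic cluster (green); dashed lines mark 2-fold. Alb and Ahsg lie above 0 and Afp below it, while the other genes of these clusters, by their brightest probes, lie between -0.21 and 0.18.

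Ambp, the remaining protease inhibitor gene, encodes a precursor that is cut into alpha-1-microglobulin and bikunin. It gave 920 and 825 in the mutant pool, against 915 and 897 in the WT pool. The pools overlapped. Its log2 ratio was -0.00 on array 1 and -0.13 on array 2.

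Fgb encodes the beta chain of fibrinogen, the protein that forms the clot. It gave 2048 and 1688 in the mutant pool, against 2072 and 1914 in the WT pool, which also overlapped. Its ratios were 0.03 and -0.19, of opposite sign. The other chains come from genes of the same cluster on chromosome 3. Fga, the alpha chain, stood at 0.06 and 0.03, and Fgg, the gamma chain, at -0.08 and -0.01. None of the 3 fibrinogen genes was further than 0.20 from 0 on either array.

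The apolipoproteins, which shape and dock lipid particles, showed small or unmeasurable differences. Apoa2, a protein of high-density lipoprotein, gave 215 and 197 in the mutant pool, against 275 and 241 in the WT pool. Both mutant signals were under both WT signals, with 1 spot per pool on each array. Its log2 ratios were -0.26 and -0.31, or 1.22-fold lower in the mutant pool by their mean.

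Apob encodes the large protein of chylomicrons and low-density lipoprotein and has 5 probes. Of these, 3 failed the background flag in every channel. The other pair passed it on both arrays for mutant RNA and on array 2 alone for WT RNA. The brighter of the pair gave 21.8 and 19.0 in the mutant pool, against 14.1 and 15.01 in the WT pool. Its log2 ratios were 0.14 and -0.00, and those by the scanner software 0.63 and 0.34. Since Apob passed the filter through the mutant pool, where its signal is higher, this difference is no support for a change.

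Apoa1, the main protein of high-density lipoprotein, has a probe printed 10 times, like Afp. On array 1 the background flag was passed by 5 spots for mutant RNA and by 1 for WT RNA. On array 2 each pool had 4 such spots. The spots' median signals were 18.2 and 14.6 in the mutant pool, against 11.2 and 11.8 in the WT pool. The spots of the pools overlapped on both arrays. The log2 ratio was 0.12 ± 0.09 on array 1 and 0.07 ± 0.07 on array 2 (SD over 10 spots each), and the scanner software's mean ratio was 0.55. Under the rule that more than 50% of a probe's spots must be well above background, Apoa1 was not measured. Its neighbours Apoc3, Apoa4 and Apoa5, which encode further lipoprotein components, had ratios between -0.13 and 0.09.

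**Figure D4:**
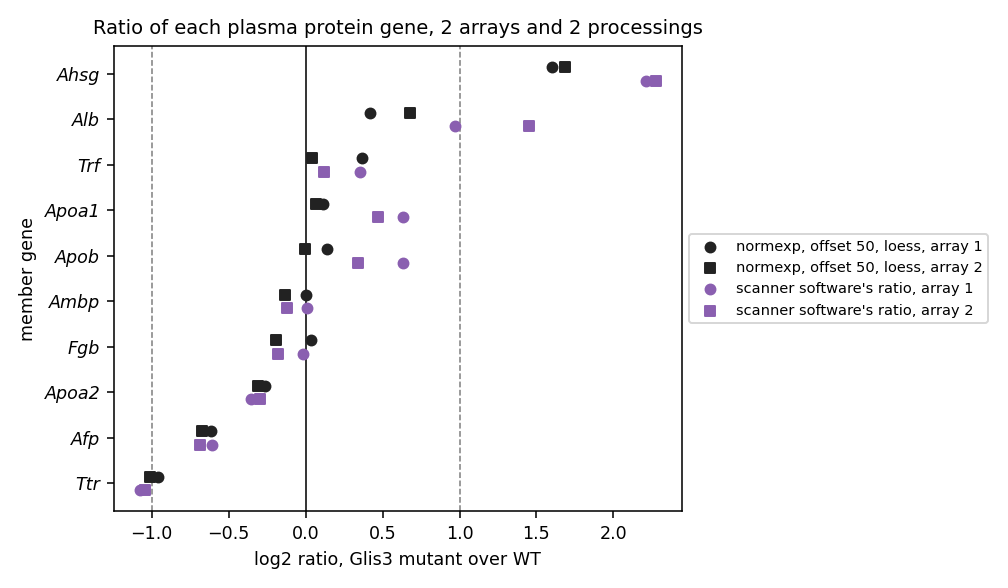
Log2 ratio, Glis3 mutant over WT, of each member gene on array 1 (circles) and array 2 (squares), from normexp background correction with loess (black) and from the scanner software (purple); dashed lines mark 2-fold. The processings lie close together for the brighter probes (Afp, Fgb, Ambp, Ttr) and apart for the dim ones, with Alb at a mean of 0.55 by one and 1.21 by the other.

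Other secreted plasma proteins were also spread around 0. Of 74 listed genes, 72 were on the array and 58 measured, 22 of them higher and 21 lower on both arrays, and 0 were 2-fold apart on both. By the scanner software's ratio 1 was 2-fold higher on both, Apoh (apolipoprotein H), and 1 lower, Mbl2, and each failed the background flag in 1 pool on both arrays. Apoh passed the filter only through the mutant pool and Mbl2 only through the WT pool, each where its signal is higher. Neither difference is support for a change, though both genes are in the counts of higher and lower genes. The list's median was 0.00. After Rbp4, the largest ratios belonged to Mbl2, a mannose-binding lectin, Serpina10, an inhibitor of clotting factor X, and Cfi, a complement protease. Mbl2 gave 13.9 and 14 in the mutant pool, under the background flag, against 65.2 and 56.7 in the WT pool. It was at least 1.59-fold lower in mutant RNA, but given that filter this is no support for a change. The scanner software gave it a mean log2 ratio of -2.12. Serpina10 gave 356 and 297 in the mutant pool, against 190 and 186 in the WT pool, a mean log2 ratio of 0.61. Cfi stood at -0.43.

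Markers of hepatocytes other than plasma proteins did not move in one direction. Of 28 enzymes and transporters, 24 were measured, 5 of them higher and 9 lower on both arrays, and 0 were 2-fold apart on both by either ratio. Their median was 0.00, and their summed signal was 297390 and 294750 in the mutant pool, against 301490 and 265070 in the WT pool. Some of this signal comes from enzymes that kidney tubules also make, such as Pck1 and Fbp1. Not measured were Cps1 and Otc, enzymes of the urea cycle, and Cyp7a1 and Cyp8b1, enzymes of bile acid synthesis. The Cps1 probe gave 4.10 and 4.03 in the mutant pool, against 3.64 and 3.56 in the WT pool, not well above background in either.

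Among hepatocyte genes with larger ratios, G6pc, the glucose-6-phosphatase that releases glucose and is also made by kidney, gave 15372 and 15114 in the mutant pool, against 27366 and 23358 in the WT pool. Its mean log2 ratio was -0.72. Slc10a1, the bile acid uptake carrier of hepatocytes, gave 240 and 217 in the mutant pool, against 421 and 383 in the WT pool, a mean of -0.68. Arg1, the arginase of the urea cycle, stood at -0.15 and -0.50 on the 2 arrays, a wide gap. Hal, histidine ammonia-lyase, stood at 0.28, with 23.8 and 31.1 in the mutant pool, against 7.18 and 18.6 in the WT pool. Its WT signal passed the background flag on 1 array only. Since Hal passed the filter through the mutant pool, where its signal is higher, this difference is no support for a change. The list held 5 genes higher and 9 lower on both arrays, with Hal among the higher.

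Of 19 measured liver transcription factors, 3 were higher and 9 lower on both arrays, and the median was -0.05. The nuclear receptor Nr5a2, an activator of Afp, had the largest ratio. It gave 149 and 188 in the mutant pool, against 376 and 306 in the WT pool, a mean log2 ratio of -0.79. Cebpa stood at -0.17 and Foxa2 at -0.15. Zhx2 and Zbtb20, which repress Afp after birth in mouse liver, had ratios of -0.09 and 0.27 and of 0.28 and -0.09, of opposite sign on the arrays. Hnf4a, a main activator of plasma protein genes that kidney tubules also express, stood at -0.06.

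Receptors that take up filtered plasma proteins in kidney tubules had a median of 0.00 over 15 genes, with 7 higher and 7 lower on both arrays. Lrp2, which encodes megalin, the main such receptor, stood at -0.18 and -0.16. B2m stood at -0.27, with -0.47 and -0.08 on the 2 arrays, a wide gap. Tfrc stood at 0.22, Stra6, the receptor of retinol binding protein, at 0.20 and Lrp1 at 0.18. Genes of triglyceride-rich lipoproteins had a median of 0.05 over 15, Apob included, with 7 higher and 6 lower on both arrays. The cholesterol exporter Abca1 stood at -0.47, the Apob editing enzyme Apobec1 at -0.37, the lipase inhibitor Angptl4 at 0.24 and the endothelial lipase Lipg at -0.21. For Apobec1 the arrays lay far apart, at -0.18 and -0.57.

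Markers of some other tissues differed between the pools beside the member genes. All 9 measured adipose genes were lower in the mutant pool on both arrays, with a median of -0.81, and their summed signal was 57660 and 53806 in the mutant pool, against 70439 and 63867 in the WT pool. Ucp1, Cidea, Plin1 and Adipoq stood at -1.17, -0.95, -0.90 and -0.85. The erythroid list had a median of -0.17, with 5 of 7 lower on both arrays and summed signals of 57448 and 57643 in the mutant pool, against 82484 and 77962 in the WT pool. Slc4a1, Epb42, Hba-a1 and Hbb-y stood at -0.61, -0.51, -0.49 and -0.17. Gata1 was the 1 erythroid gene higher on both arrays, at 0.05 and 0.03, and 1 had opposite signs. For Hba-a1 the arrays lay far apart, at -0.76 and -0.23. Macrophage and leukocyte genes had a median of -0.20, with 8 of 12 lower on both arrays and 31435 and 28758 in the mutant pool, against 37406 and 33792 in the WT pool. Tyrobp, Cd52, Lyz2 and Lyz1 stood at -0.58, -0.29, -0.27 and -0.25. Csf1r was the 1 leukocyte gene higher on both arrays, at 0.14 and 0.19, and 3 had opposite signs. The part of these tissues in the ratios of Ttr, Afp, Alb and Ahsg was not tested.

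The remaining lists had medians nearer 0. The kidney nephron list had a median of -0.00 over 20 genes, with Kap at -0.59, Aqp2 at 0.49, Fxyd2 at -0.35 and Slc3a1 at 0.32. The acinar list had a median of -0.04 over 10, with Cpb1 at -0.25, Cpa1 at -0.19, Rnase1 at -0.18 and Ctrb1 at 0.08. Islet hormones had a median of -0.02 over 5, with Ghrl at 0.48, Pyy at -0.06, Iapp at -0.06 and Sst at -0.02. Over 8 gut epithelium genes the median was 0.03, and Lgals4 stood at 0.59, Sox17 at -0.36 and Fabp1 at -0.11. Tff3 of that list failed the background flag in WT RNA and was at least 1.14-fold higher in the mutant pool. The scanner software gave it a mean log2 ratio of 1.26. Since Tff3 passed the filter through the mutant pool, where its signal is higher, this difference is no support for a change. The choroid plexus and brain list, Ttr included, had a median of -0.08 over 8, with Clic6 at -0.37 and Mbp at 0.29.

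**Figure D5:**
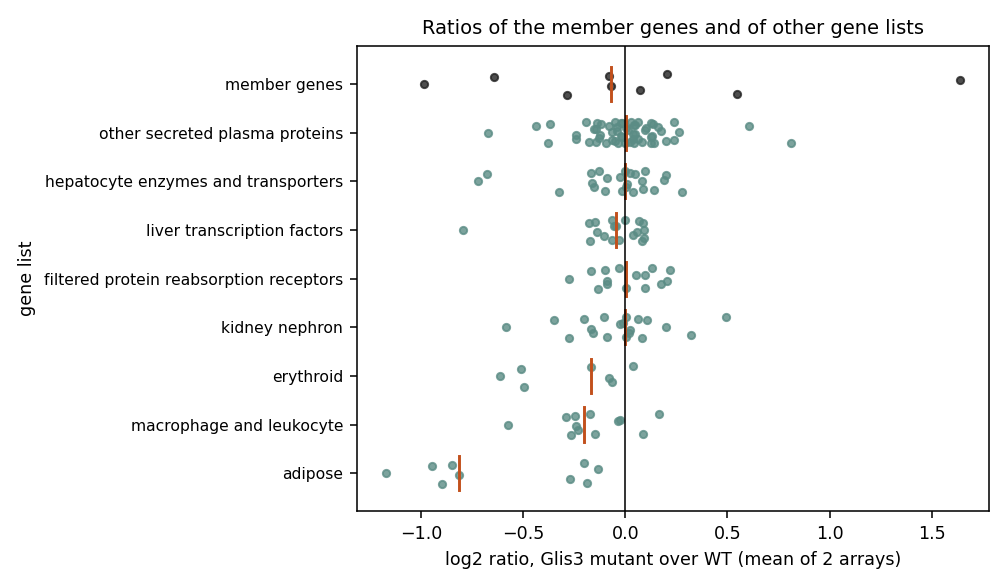
Log2 ratio, Glis3 mutant over WT (mean of 2 arrays), of the 9 measured member genes (black) and of the measured genes of 8 other lists (green), with each list's median in orange. The member genes reach from -0.99 to 1.64 around a median of -0.07, other plasma protein genes have a median of 0.00, and adipose genes lie below 0 with a median of -0.81.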

How the data were processed

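Each PND3 scanner file gives mean spot intensities, median local background intensities and processed intensities after background subtraction and dye normalization, per the file headers. Its deposited log ratio is a log10 value, red (Cy5) over green (Cy3), per the file headers, which name Feature Extraction 9.1.3.1 and protocol GE2-v5_91_0806. The submitters' processing notes name version 8.1. Flags for spot type, background and outliers were used as other columns, per the file headers. The authors' deposited value table holds log2 ratios of mutant over WT, as found by setting it against the scanner's ratios (r = 0.9996 and 0.9997, both medians 0). The sources used here do not say how that table was made.

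With R 4.3.3 and limma 3.58.1, normexp (offset 50) corrected the background, loess normalized the ratios with control spots at weight 0, and the sign of array 1 was turned. Of 43379 non-control spots per array, 18 and 26 marked as outliers were left out, none was saturated, and 72.8% to 76.6% per pool were well above background. Normalization was tested on simulated data with known folds given to brighter probes only, so the offset's effect on dim probes was not tested. Spots of a probe were averaged. Accessions of 22951 probes matched RefSeq symbols (GRCm38.p6, for names only), and other probes kept the file's name. Where both arrays left a pool under the background flag, "at least" folds set that pool, per array, to its own level or the lowest level of any probe flagged above background, whichever was higher, after loess and Aquantile. Named are the members, Glis3, cluster neighbours and up to 4 genes of each list with the largest ratios. Others were chosen after their values were seen (Apoh, Hnf4a, Zhx2, Zbtb20, Lrp2, Csf1r, Gata1, Cps1 and the enzymes not measured or shared with kidney). Some listed genes are not reported here. Members and lists were chosen with earlier results of these data known. The E15.5 fit planned for the members was not run for lack of gene names. Alternatives changed the background correction, offset, normalization, filter, probe rule and arrays.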

Additional observations from a re-analysis of the deposited data

How the results depend on the processing

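Ahsg stayed the highest member, Ttr the lowest, and Ahsg at least 2-fold higher on the arrays used under all 11 alternatives run. Not all of these could change the values. Ahsg, Alb, Afp and Ttr each have 1 probe, flagged in every channel, so the probe rule and the filters left their ratios as they were. The authors' table nearly repeats the scanner software's ratio, so it is no separate alternative. The number of members 2-fold apart was 1 in the settings reported, and 2, with Ttr added, by the scanner software's ratio, the authors' deposited table, an offset of 0, median centring, and on array 2 alone. Leaving out either array gave 1 to 2 members, 48 to 59 of all genes, a median of -0.13 to 0.03 and a distance from Ttr to Ahsg of 2.56 to 2.69. That distance was 2.63 as reported, 3.30 by the scanner's ratio and by the authors' table, and 3.13 with an offset of 0. All genes 2-fold apart numbered 40 as reported, 175 by the scanner's ratio and by the authors' table (22 higher and 153 lower), and 100 with an offset of 0 (10 higher and 90 lower). Median centring moved the median of the members to -0.22 and that of all genes to -0.11. Ranges over the alternatives were 1.56 to 2.24 for Ahsg, 0.42 to 1.21 for Alb, -0.91 to -0.61 for Afp and -1.13 to -0.96 for Ttr, each of 1 sign. Apob and Fgb changed sign in 1 alternative each, and what causes the shifts was not tested. The rule counting any spot above background, which adds Apoa1, was chosen after seeing the data and gave 1 member 2-fold apart and 40 genes in all. No paired analysis was possible because both PND3 arrays hold the same 2 pools. The planned E15.5 alternatives were not run. Dim signals limit Alb, Apob and Apoa1.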
